A study of Mus musculus with 22 samples.

Results

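Gene expression was compared between 4 mice labelled Hypoxia and 4 mice labelled Control, all labelled P14 (postnatal day 14). These are the 8 libraries, of 22 in the whole series from 20 animals, whose treatment label is Hypoxia or Control at that age. Each library was made from CD11b+ cells of 1 brain of a CF-1 wildtype mouse, and each group held 2 males and 2 females. The Hypoxia animals are P6H7-16M, P6H7-8F, P6H9-14M and P6H9-15F, and the controls are P4H4-8M, P4H4-7F, P6H8-7M and P6H8-8F. Every name prefix (P6H7, P6H9, P4H4, P6H8) was shared by 1 male and 1 female of the same group. The sources used here do not say what a prefix stands for, and the effects of prefix and treatment cannot be told apart. In the same tables, HIE (hypoxic-ischemic encephalopathy) animals combine maternal immune activation by LPS with postnatal hypoxia. The study's text does not describe the group given hypoxia alone, and whether its dams received an injection is not stated in the sources used here. The protocol label speaks of brains collected on P7 for all libraries, whereas the time label of these 8 gives P14, which is used here.

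CD11b is an integrin subunit on the surface of microglia, the resident macrophages of the brain, and of macrophages at its borders, monocytes and neutrophils. Low oxygen stabilizes the HIF transcription factors, which switch on genes for glucose uptake, glycolysis and vessel growth. Microglia in the postnatal brain clear cells and synapses and can present antigen or release inflammatory signals after injury.

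Total counts lay between 29751540 and 39349011 per library, and levels are given as CPM (counts scaled to library size). A count of 3, used as the floor, corresponded to 0.0762 to 0.101 CPM. Rank correlations over the tested genes were 0.979 to 0.987 between animals of the same prefix, 0.970 to 0.983 between prefixes of the same group and 0.962 to 0.984 between groups. The label of CD11b+ cells was checked against marker genes. The microglia markers P2ry12 (2860 to 5106 CPM), Tmem119 (1063 to 1896 CPM) and Cx3cr1 (2919 to 4411 CPM) were high in every library, and Itgam, which encodes CD11b, was at 1059 to 1670 CPM. The labels call the cells monocytes, whose marker Ly6c2 was at 0.71 to 4.39 CPM and Ccr2 at 11.0 to 22.9 CPM. Markers of cells without CD11b were also present, such as Mbp of oligodendrocytes (284 to 1432 CPM), Aqp4 of astrocytes (58.8 to 354 CPM) and Ttr of the choroid plexus (777 to 3649 CPM).

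Hypoxia and control animals differed in few genes at P14. Of 20953 genes tested with edgeR's quasi-likelihood test, 2 rose in Hypoxia animals at an adjusted p under 0.05 (0.00955% of those tested), and none fell (smallest adjusted p among the lower genes 0.2). At an unadjusted p under 0.05 there were 1996 genes, of which 622 were higher (2.97%) and 1374 lower (6.56%). All 4 Hypoxia animals were above all 4 controls in 461 genes (2.2%) and below them in 604 genes (2.88%). DESeq2 called 53 genes higher (0.3%) and 111 lower (0.627%) among 17695 genes with an adjusted p, and both tools called the same 2 genes. The median log2 fold change over all genes tested was -0.01. Animals that share a prefix were treated as independent in these tests.

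The gene with the smallest p was Ahcyl (ENSMUSG00000048087), a gene without introns on the minus strand of chromosome 16 (GRCm39, chr16:45973348-45975440). Its level was 5.98 and 6.50 CPM in the P6H7 animals, 9.40 and 5.79 CPM in the P6H9 animals, 0.282 and 0.407 CPM in the P4H4 controls and 0.382 and 0.176 CPM in the P6H8 controls. All Hypoxia animals lay far above all controls. The log2 fold change was 4.47 ± 0.31 (SE, n = 4 per group; edgeR's quasi-likelihood test, adjusted p = 0.00162). Ahcyl is a near copy of Ahcy, which encodes S-adenosylhomocysteine hydrolase, the enzyme that clears the by-product of methylation reactions. Over 2083 aligned bases the transcripts of both genes were 99.71% identical, with 6 mismatches, 4 of them in the coding sequence of 1296 bases. A stretch of 120 coding bases (355 to 474 from the start of the coding sequence, in Ahcyl chr16:45974902-45975021, minus strand) is shown. Capitals mark the 2 positions in it where the genes differ. By its own sequence, a read lying wholly within the stretch can be told apart only if it covers a capital.
Ahcyl: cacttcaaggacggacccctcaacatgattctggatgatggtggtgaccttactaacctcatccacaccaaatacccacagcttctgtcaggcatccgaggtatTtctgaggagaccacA
Ahcy: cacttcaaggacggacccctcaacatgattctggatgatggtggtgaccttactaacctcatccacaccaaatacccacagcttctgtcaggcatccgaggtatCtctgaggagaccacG
The authors' counting divides reads between such copies by estimation, so the share of each is uncertain. Ahcy, scaled to total counts, was at 8.62, 9.76, 12.0 and 11.3 CPM in the Hypoxia animals and at 18.2, 14.6, 11.7 and 13.5 CPM in the controls. The groups overlapped in Ahcy. Summed over Ahcyl, Ahcy and the third copy Gm9826, the level was 17.4 ± 3.14 CPM in Hypoxia and 14.9 ± 2.71 CPM in control animals (SD, n = 4 each), and the log2 fold change of the sum was 0.21 ± 0.17 (SE; adjusted p = 0.708, quasi-likelihood test). The call of Ahcyl alone was lost in the fit of 12 animals (adjusted p = 0.298), with counts summed per name prefix (0.297), against the P6H8 controls alone (0.148), and in males (0.583) or females (0.268) alone. Among the HIE animals Ahcyl was at 13.2, 11.9, 5.15 and 0.66 CPM, which spans the range from above the Hypoxia animals down to near the controls. The series also holds 8 younger animals from a separate table, 4 HIE labelled P7 and 4 controls labelled P8, P9, P10 and P11. Age and treatment labels differ together in them. Among these 8, Ahcyl was at 34.6 CPM in the HIE animal N8-3 and at 0.53 to 1.32 CPM in the other 7.

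**Figure D1:**
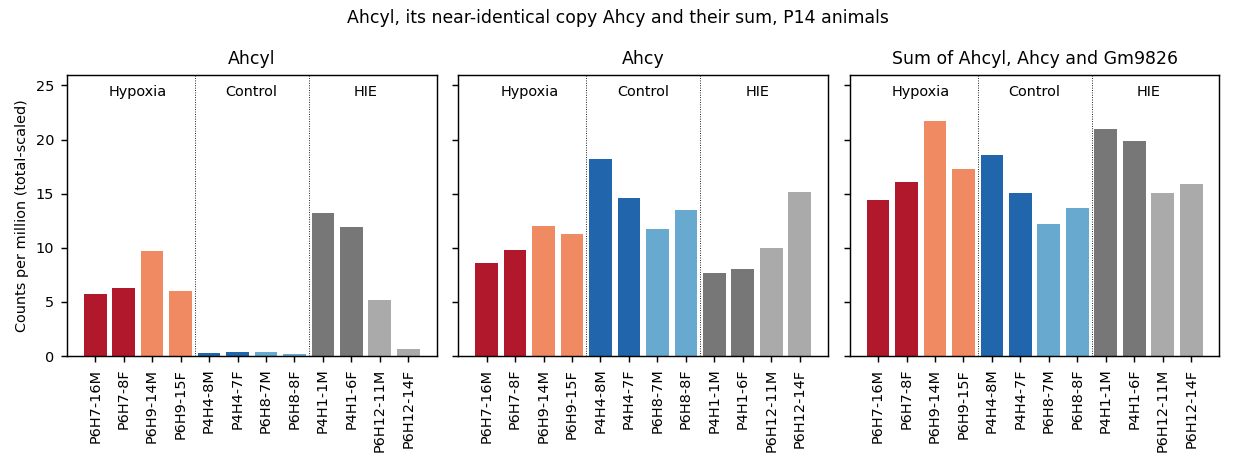
Bars give the level of Ahcyl, of its near-identical copy Ahcy and of the sum of both with Gm9826 in each of the 12 P14 animals, in CPM scaled to total counts, with shades for name prefixes. Ahcyl lies at 5.76 to 9.72 in the Hypoxia animals and at 0.18 to 0.40 in the controls, whereas the sums of the groups overlap.

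The other gene that rose was Gm7240 (ENSMUSG00000113626), a transcribed processed pseudogene on chromosome 13 (chr13:62008630-62009293, plus strand). It had 52, 53, 87 and 54 counts in the Hypoxia animals P6H7-16M, P6H7-8F, P6H9-14M and P6H9-15F. The controls P4H4-8M, P4H4-7F, P6H8-7M and P6H8-8F had 0, 2, 0 and 1 counts. Every Hypoxia animal was above every control. With 246 counts against 3 in all, the ratio scaled to depth was 79.0 (95% exact interval 26.7 to 386, counting error only), and edgeR's quasi-likelihood test gave an adjusted p of 0.0189. All 664 bases of Gm7240 lie within a transcript of the annotated long noncoding RNA 1700028E11Rik, which was not analysed here. The HIE animal P6H12-14F (1.38 CPM) and 4 of the younger animals (0.90 to 1.82 CPM) also held it, while the other HIE animals of P14 were at 0.04 CPM or less. The call of Gm7240 was lost when the Hypoxia animal P6H9-15F (adjusted p = 0.108) or the control P4H4-8M (0.0806) or P6H8-8F (0.0943) was left out. It was also lost in the fit of 12 animals (0.366), with counts summed per name prefix (0.451), with sex as a covariate (0.0676), against the P6H8 (0.148) or the P4H4 controls (0.122) alone, and in males (0.886) or females (0.318) alone.

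Several other genes near the top of the ranking have near-identical copies as well, and none of these passed the test. Gm2999, a processed pseudogene that is 95.93% identical to the translation factor gene Eif4a2, was at 0.03 to 0.23 CPM in Hypoxia and 1.11 to 1.31 CPM in control animals (log2 fold change -3.39 ± 0.47 SE, adjusted p = 0.2, quasi-likelihood test). Gm43302, which is 99.86% identical to the interferon-inducible GTPase gene Gbp6 and 99.34% identical to Gbp10, was at 0 to 0.40 CPM in Hypoxia and 2.56 to 3.72 CPM in control animals (-4.17 ± 0.62 SE, adjusted p = 0.227). Gbp6 was on the opposite side, with 3.37, 4.13, 5.48 and 7.97 CPM in Hypoxia and 3.43, 3.01, 2.02 and 1.64 CPM in control animals. With the 3 guanylate-binding genes summed, the log2 fold change was -0.28 ± 0.23 (SE, adjusted p = 0.719), and with Gm2999 and Eif4a2 summed it was 0.02 ± 0.09 (SE, adjusted p = 0.971). Lefty1, a secreted inhibitor of Nodal signalling, had 0, 5, 2 and 1 counts in Hypoxia and 22, 14, 55 and 60 counts in control animals (adjusted p = 0.406), and the sum with Lefty2 gave an adjusted p of 0.47. The largest lower value among genes with a mean CPM of at least 5 was that of the ribosomal protein pseudogene Rps3a3 (-7.68 ± 1.48 SE, adjusted p = 0.443). It was at 0.03 to 0.48 CPM in the Hypoxia animals and at 72.0, 69.0 and 63.2 CPM in 3 controls, but at 0.03 CPM in the control P6H8-7M. Its family sum with Rps3a1 and Rps3a2 was 550 ± 68.8 CPM in Hypoxia and 450 ± 33.8 CPM in control animals (SD, n = 4 each). The sums did not overlap, at 495 to 648 CPM against 412 to 489 CPM, as in 2.2% of all genes with Hypoxia above. The log2 fold change of the sum was 0.285 ± 0.127 (SE, adjusted p = 0.527, quasi-likelihood test). The largest higher value was that of Ncoa4-ps (3.42 ± 0.88 SE, adjusted p = 0.463), a pseudogene at 46.5 and 22.3 CPM in the Hypoxia animals P6H7-16M and P6H9-15F and at 1.15 to 3.33 CPM in the other 6.

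The leading genes without such a copy (at least 95% identity over at least 50% of the transcript) were chosen by their p in these same animals. That their groups did not overlap follows largely from this choice (over all genes, 2.2% above and 2.88% below). None passed the quasi-likelihood test. Gapt, which encodes a membrane adaptor of blood cells that binds GRB2, was at 2.99, 4.23, 4.42 and 3.35 CPM in Hypoxia and at 0.82, 0.91, 0.35 and 0.70 CPM in control animals (log2 fold change 2.42 ± 0.30 SE, adjusted p = 0.116, quasi-likelihood test). The zinc finger gene Zfp33b was at 18.7 to 25.9 CPM against 9.62 to 12.7 CPM (0.96 ± 0.14 SE, adjusted p = 0.227). Arhgap11a, a GTPase-activating protein, was at 43.5 to 56.8 CPM against 25.7 to 33.8 CPM (0.79 ± 0.12 SE, adjusted p = 0.251). Slc37a2, a sugar-phosphate transporter of macrophages, was at 104 to 129 CPM against 64.8 to 83.4 CPM (0.65 ± 0.10 SE, adjusted p = 0.265). On the lower side, the immunoglobulin superfamily gene Igsf8 was at 41.7 to 50.6 CPM in Hypoxia against 69.2 to 93.5 CPM in control animals (-0.74 ± 0.12 SE, adjusted p = 0.255). Mybpc1, a myosin-binding protein, was at 1.02 to 3.19 CPM against 5.73 to 10.8 CPM (-1.88 ± 0.34 SE, adjusted p = 0.406), and Rgs8, a regulator of G protein signalling, was at 7.58 to 14.7 CPM against 19.3 to 33.8 CPM (-1.21 ± 0.22 SE, adjusted p = 0.424). DESeq2 gave adjusted p-values of 8.38e-12 for Gapt, 3.27e-06 for Zfp33b, 2.08e-05 for Arhgap11a, 0.000106 for Slc37a2, 0.000199 for Igsf8, 6.09e-05 for Mybpc1 and 0.00042 for Rgs8. Zfp33b (chr5:104719508-104747911) and Gm43302 (chr5:105362773-105441561) both lie on chromosome 5. Igsf8 overlaps Kcnj9 on the opposite strand, and the strand setting of the counting is not given in the sources used here.

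**Figure D2:**
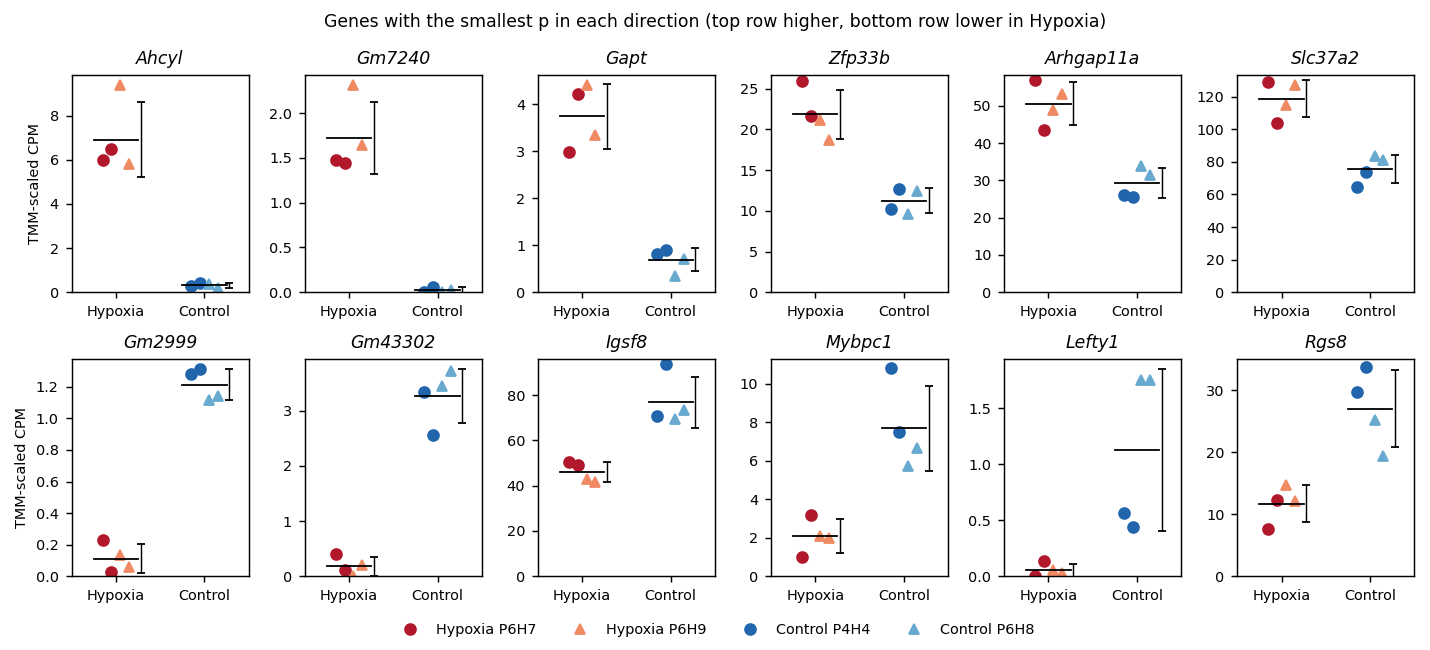
Each panel plots TMM-scaled CPM of 1 gene in the 4 Hypoxia and 4 control animals, with symbols for name prefixes, a line at the group mean and a bar of 1 SD. In all 12 genes the groups are separate, which follows largely from choosing them by the smallest p. Only Ahcyl and Gm7240 passed the adjusted threshold.

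The oxygen-sensing pathway gave no call at P14. Hif1a, the oxygen-regulated subunit of HIF, was at 154, 166, 155 and 151 CPM in Hypoxia and 163, 158, 149 and 160 CPM in control animals (log2 fold change -0.01 ± 0.07 SE, adjusted p = 0.98, quasi-likelihood test). Of 29 HIF target genes measured, 16 had higher and 13 lower values, none passed, and the median log2 fold change was 0.00. Vegfa, the vascular growth factor and a classical HIF target, had the smallest p of the list, with 12.1, 14.2, 16.1 and 15.1 CPM in Hypoxia and 18.5, 20.1, 18.9 and 16.4 CPM in control animals. All Hypoxia animals were below all controls, as in 2.88% of all genes (-0.36 ± 0.12 SE, adjusted p = 0.475). The glucose transporter gene Slc2a1 (0.38 ± 0.21 SE), the transferrin receptor gene Tfrc (0.48 ± 0.22 SE) and the hexokinase gene Hk2 (0.00 ± 0.12 SE) did not pass. Among 17 components of the pathway the median was 0.01, and Epas1, which encodes HIF-2 alpha and is prominent in endothelium, had the smallest p (0.47 ± 0.18 SE, adjusted p = 0.5). The coactivators Crebbp and Ep300 stood at 0.01 ± 0.12 and 0.06 ± 0.14 (SE).

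Genes of energy metabolism were also without a call. Glycolysis genes were lower in value in 16 of 22 members, with a median of -0.13, and 4 were lower at an unadjusted p under 0.05 against the background of 6.56%. Pfkm, a phosphofructokinase subunit, was at 22.3, 33.0, 33.7 and 32.5 CPM in Hypoxia and 49.0, 55.6, 39.6 and 36.4 CPM in control animals, with no overlap (-0.57 ± 0.17 SE, adjusted p = 0.463, quasi-likelihood test). The lactate transporter gene Slc16a1 and the pyruvate kinase gene Pkm stood at 0.40 ± 0.21 and -0.07 ± 0.09 (SE). All 13 transcripts encoded by the mitochondrial genome had lower values, with a median of -0.26. The 3 most abundant, mt-Co1 (-0.11 ± 0.20 SE), mt-Cytb (-0.22 ± 0.16 SE) and mt-Nd1 (-0.25 ± 0.15 SE) did not pass, and mt-Co2 had the smallest p (-0.46 ± 0.16 SE, adjusted p = 0.477). The score of the list, the mean log2 CPM of its genes, was 9.06 in both P4H4 controls, 8.64 and 8.61 in the P6H8 controls and 8.48 to 8.74 in the Hypoxia animals, so that the P4H4 controls stood above the other 6.

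Genes of antigen presentation through MHC class II had lower values in the Hypoxia animals. Cd74, which encodes the invariant chain that escorts MHC class II molecules, was at 114, 74.0, 90.2 and 68.0 CPM in Hypoxia and at 154, 127, 167 and 164 CPM in control animals. The groups did not overlap, and the log2 fold change was -0.82 ± 0.16 (SE, adjusted p = 0.461, quasi-likelihood test; DESeq2 adjusted p = 0.0071). H2-Aa, which encodes an MHC class II alpha chain, was at 42.1, 23.5, 31.4 and 20.8 CPM against 46.7, 43.4, 48.5 and 49.4 CPM (-0.67 ± 0.20 SE, adjusted p = 0.463). H2-Eb1, a beta chain, was at 32.6, 11.6, 21.7 and 16.3 CPM against 42.6, 36.1, 23.4 and 40.3 CPM (-0.79 ± 0.30 SE, adjusted p = 0.498), and here the groups overlapped. H2-Ab1, a further beta chain, and Ciita, the transactivator of these genes, were chosen after their values were seen and had log2 fold changes of -0.67 ± 0.16 and -0.97 ± 0.25 (SE). Both were called by DESeq2 (adjusted p = 0.0336 and 0.0372), but not by the quasi-likelihood test (adjusted p = 0.463 for each). Of 15 members of the list of dendritic cells and MHC class II, 11 were lower, 7 of them at an unadjusted p under 0.05 (6.56% of all genes), and in 6 all Hypoxia animals were below all controls (background 2.88%). The median was -0.67, and it lay between -0.87 and -0.52 when either control prefix, either Hypoxia prefix or any 1 animal was left out. The dendritic cell genes Zbtb46 (-0.05), Flt3 (-0.09), Batf3 (0.02), Xcr1 (0.05) and Clec9a (0.02), in contrast, had log2 fold changes near 0. HIE animals reached from 94.97 to 229 CPM of Cd74, and the difference between Hypoxia and HIE animals was -0.82 (adjusted p = 0.868).

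Microglia and border-associated macrophages had list medians near that of all genes, apart from single members. In bulk samples, fewer cells of a type and less RNA per cell cannot be told apart. Of 19 microglia genes measured, 14 had higher and 5 lower values, with a median log2 fold change of 0.09. Against the same controls, the median of this list was 0.29 in the P6H7 and -0.14 in the P6H9 animals. Csf1r, the growth factor receptor of microglia, stood at 0.03 ± 0.16 (SE), and Sparc, a matrix protein, at -0.02 ± 0.17. Slc2a5, a fructose transporter, was the exception, with 9.34, 5.62, 15.0 and 9.20 CPM in Hypoxia and 29.3, 33.7, 74.6 and 7.40 CPM in control animals (-1.89 ± 0.58 SE, adjusted p = 0.463, quasi-likelihood test). One control, P6H8-8F, lay within the Hypoxia range. Of 15 genes of border-associated macrophages, 10 were lower, with a median of -0.16, among them the scavenger receptor genes Stab1 (-0.16 ± 0.13 SE) and Siglec1 (-0.56 ± 0.29 SE, adjusted p = 0.566), while Mrc1 (0.05 ± 0.17 SE) and F13a1 (0.12 ± 0.17 SE) were not.

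Neutrophil genes were higher in value in 14 of 15 members, with a median of 0.87 and 6 at an unadjusted p under 0.05 against 2.97% of all genes. S100a9, a calcium-binding protein abundant in neutrophils, was at 72.7, 27.3, 90.5 and 64.8 CPM in Hypoxia and at 34.3, 27.4, 34.7 and 38.3 CPM in control animals (0.92 ± 0.30 SE, adjusted p = 0.474, quasi-likelihood test). The Hypoxia animal P6H7-8F lay at the level of the lowest control, and the other 3 lay above all controls. The score of the neutrophil list was 3.64, 2.17, 4.02 and 3.74 in Hypoxia and 2.40 to 2.97 in control animals. Mmp9, a matrix-degrading protease stored by neutrophils, stood at 0.48 ± 0.38 (SE), and Csf3r, the receptor for the neutrophil growth factor, at -0.23 ± 0.18. Of 14 monocyte genes, 10 were higher, with a median of 0.18. Fn1, Nr4a1 and Vcan stood at 0.18 ± 0.22, 0.10 ± 0.21 and -0.14 ± 0.28 (SE).

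Markers of blood vessels had higher values in Hypoxia animals. All 14 genes of mural cells, the pericytes and smooth muscle cells around vessels, were higher, 9 of them at an unadjusted p under 0.05 (2.97% of all genes), with a median of 0.54. Rgs5, a regulator of G protein signalling that marks pericytes, was at 639, 873, 431 and 580 CPM in Hypoxia and at 407, 319, 352 and 385 CPM in control animals, with no overlap (0.79 ± 0.19 SE, adjusted p = 0.463, quasi-likelihood test; DESeq2 adjusted p = 0.0292). Acta2, the smooth muscle actin gene, was at 150, 128, 102 and 71.2 CPM against 53.3, 33.8, 76.4 and 68.5 CPM (0.96 ± 0.28 SE, adjusted p = 0.463), and Vtn, the gene of vitronectin, stood at 0.55 ± 0.19 (SE, adjusted p = 0.475). The mural score was 4.93 to 5.36 in Hypoxia and 4.35 to 4.66 in control animals, without overlap. All 15 endothelial genes were higher too, 4 of them at an unadjusted p under 0.05 (2.97% of all genes), with a median of 0.34. Ly6c1, a surface protein of brain endothelium, had the smallest p (0.65 ± 0.18 SE, adjusted p = 0.463), and the VEGF receptor genes Flt1 and Kdr stood at 0.37 ± 0.21 and 0.34 ± 0.22 (SE). Endothelial scores overlapped, at 5.89 to 6.53 in Hypoxia and 5.37 to 6.14 in control animals. Against the same controls, which both comparisons share, the HIE animals had a median of 0.62 in the mural and 0.42 in the endothelial list.

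Markers of neural cells had lower values in the Hypoxia animals as a group. The size, and for oligodendrocyte genes also the sign, depended on which animals were compared. Of 16 neuron genes, 15 were lower and 8 of these had an unadjusted p under 0.05 (6.56% of all genes), with a median of -0.71. Elavl3, a neuronal RNA-binding protein, was at 21.3, 18.0, 40.9 and 32.4 CPM in Hypoxia and 55.9, 52.3, 43.5 and 32.2 CPM in control animals (-0.71 ± 0.26 SE, adjusted p = 0.487, quasi-likelihood test). The P6H9 animals lay within the range of the controls and the P6H7 animals below it. The potassium channel gene Kcnj4 had the smallest p (-1.25 ± 0.35 SE, adjusted p = 0.463), the synaptic vesicle gene Syt1 stood at -0.67 ± 0.32 (SE) and the noncoding RNA Meg3 at 0.02 ± 0.27. All 15 astrocyte genes were lower, with a median of -0.75 and 6 at an unadjusted p under 0.05 (6.56% of all genes). They included the glutamate transporter genes Slc1a3 (-0.24 ± 0.39 SE) and Slc1a2 (-0.39 ± 0.33 SE), the water channel gene Aqp4 (-0.78 ± 0.39 SE) and Atp1b2, a sodium pump subunit (-0.59 ± 0.17 SE, adjusted p = 0.463). All 15 oligodendrocyte genes were lower, none at an unadjusted p under 0.05, with a median of -0.44. The myelin genes Mbp (-0.96 ± 0.48 SE), Cnp (-0.67 ± 0.42 SE) and Mobp (-1.09 ± 0.50 SE) were at their highest in the P4H4 controls. Against the P6H8 controls alone, their log2 fold changes were 0.18, 0.08 and 0.11, so the sign of these genes rested on the P4H4 controls. Against all 4 controls, the median of the oligodendrocyte list was -1.37 in the P6H7 and 0.06 in the P6H9 animals, and that of the neuron list was -1.11 and -0.35. The median of the astrocyte list against the P6H8 controls alone was -0.12. The part of other cells in the preparations in any result was not tested.

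**Figure D3:**
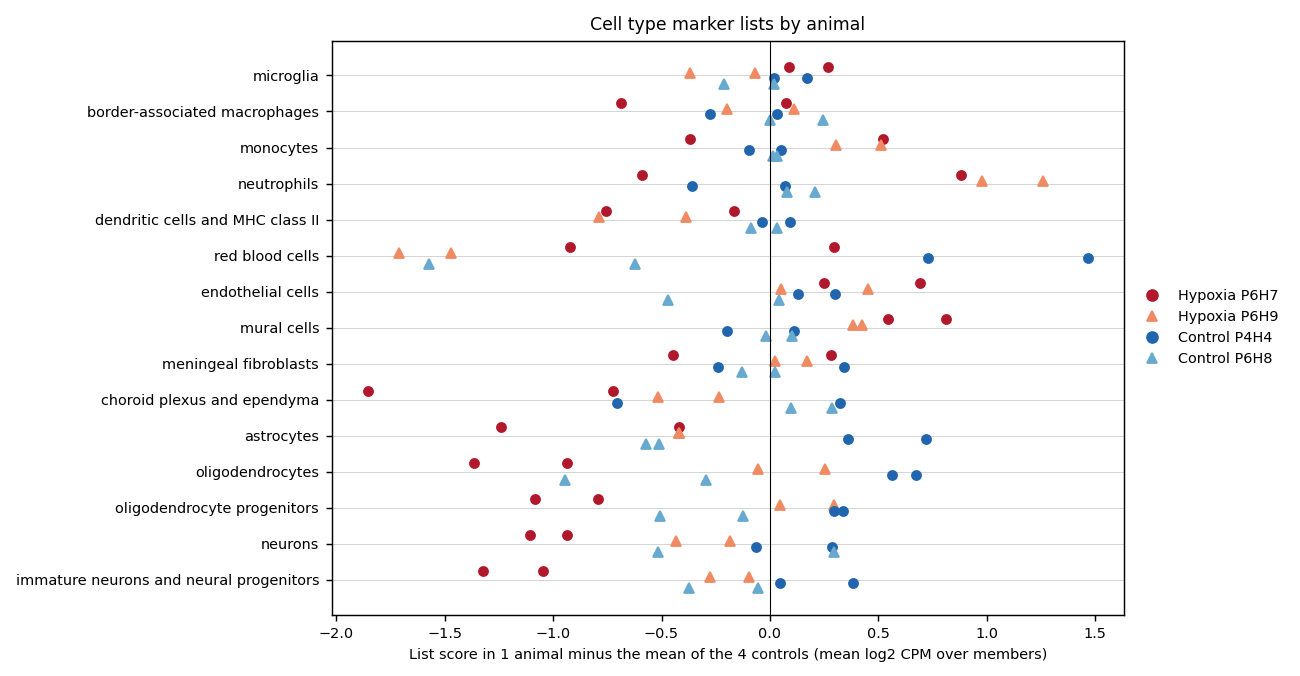
Points give, for each of the 8 animals, the score of a marker list (mean log2 CPM over its genes) minus the mean score of the 4 controls, with 1 color and symbol per name prefix. Mural cell scores are above those of all controls in the 4 Hypoxia animals, and the P6H7 animals have the lowest neuron scores, 3.19 and 3.36 against 3.78 to 4.59 in the controls.

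The Hypoxia animals also differed among themselves, by name prefix. In a fit chosen after seeing the data, with the 4 prefixes as groups, 507 genes differed between the P6H7 and P6H9 animals (edgeR's quasi-likelihood test, adjusted p under 0.05), 60 of them higher (0.286%) and 447 lower (2.13%) in P6H7. Between the 2 control prefixes, 3 genes differed by the same test, with 2494 at an unadjusted p under 0.05 against 3308 between the Hypoxia prefixes. Set against the 4 controls, the 2 P6H7 animals had 86 genes higher (0.394%) and 688 lower (3.15%), whereas the 2 P6H9 animals had 11 higher (0.0502%) and 5 lower (0.0228%). Ahcyl and Gm7240 were called in both comparisons with the same sign, and Vps37b with opposite signs. Both comparisons use the same controls. Animals with 1 prefix may share more than the treatment, and with 2 animals per prefix these counts describe these animals.

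Some genes of ependyma and choroid plexus fell in the P6H7 animals. Foxj1, the master regulator of motile cilia, was at 7.06 and 10.8 CPM in P6H7, at 55.6 and 38.3 CPM in P6H9 and at 41.8 to 81.3 CPM in the controls. One P6H9 animal was within the range of the controls and the other just below it, and the difference between P6H7 and P6H9 was -2.39 ± 0.34 (SE, n = 2 each, adjusted p = 0.022, quasi-likelihood test). Of the 15 genes of choroid plexus and ependyma, 4 fell in P6H7 against the controls (3.15% of all genes), namely Foxj1, Ccdc153, Tmem212 and Rarres2. Ccdc153, an axonemal gene, was at 1.91 and 2.67 CPM in P6H7, 17.6 and 11.8 CPM in P6H9 and 14.9 to 26.4 CPM in the controls. Ttr, the transthyretin gene of the choroid plexus, did not follow this pattern, with 777 and 2250 CPM in P6H7, 1636 and 2225 CPM in P6H9 and 1012 to 3649 CPM in the controls. The difference from P6H9 was also past the threshold for Hydin (-1.82 ± 0.27 SE, adjusted p = 0.0228) and Cfap65 (-2.25 ± 0.26 SE, adjusted p = 0.0147), which are needed for motile cilia, and for the progenitor factor gene Sox2 (-1.57 ± 0.25 SE, adjusted p = 0.0271). These 3 genes were chosen after their values were seen. In the group of immature neurons and neural progenitors, 3 of 14 genes fell in P6H7 against the controls (3.15% of all genes), and in the mural list 3 of 14 rose (0.394% of all genes), among them Rgs5 (1.05 ± 0.15 SE, adjusted p = 0.0177). Hpgd, which inactivates prostaglandins, was higher in P6H7 than in P6H9 (1.87 ± 0.23 SE, adjusted p = 0.0177), at 120 and 122 CPM in P6H7, 42.2 and 24.1 CPM in P6H9 and 25.5 to 39.3 CPM in the controls, and it was chosen after its values were seen.

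**Figure D4:**
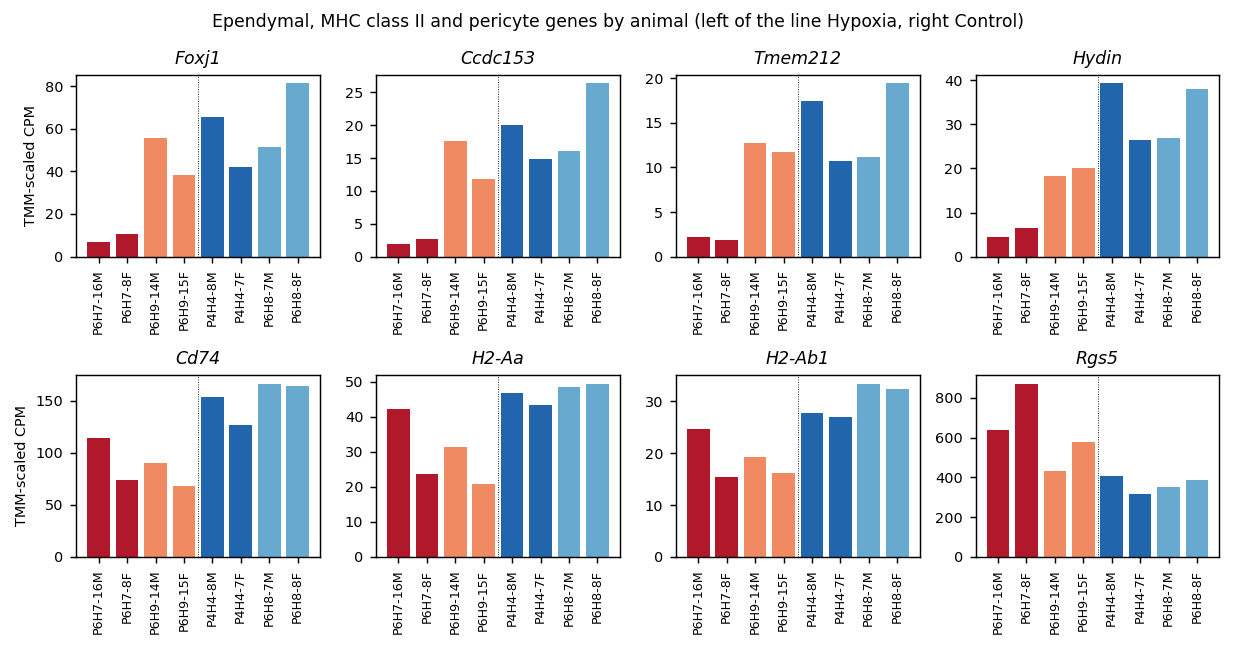
Bars give TMM-scaled CPM in each of the 8 animals for the ependymal genes Foxj1, Ccdc153, Tmem212 and Hydin, the MHC class II genes Cd74, H2-Aa and H2-Ab1, and the pericyte gene Rgs5. The P6H7 animals are lowest in the 4 ependymal genes, all Hypoxia animals are below the controls in the MHC class II genes, and all are above them in Rgs5.

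Vps37b and Abcb9 moved with the prefix. Vps37b, a subunit of the ESCRT-I sorting complex, was at 169 and 210 CPM in P6H7, 48.1 and 42.7 CPM in P6H9 and 105 to 136 CPM in the controls, with the controls between the Hypoxia prefixes. The groups as a whole gave no call (-0.02 ± 0.47 SE, adjusted p = 0.994), while the prefixes differed (2.06 ± 0.16 SE, adjusted p = 0.00431, quasi-likelihood test). Abcb9, a lysosomal peptide transporter gene near Vps37b on chromosome 5, was at 22.4 and 35.4 CPM in P6H7, 7.03 and 6.15 CPM in P6H9 and 16.4 to 22.8 CPM in the controls. The 4 HIE animals were at 37.8 to 53.4 CPM of Vps37b and 6.74 to 9.63 CPM of Abcb9, which is below all controls, as in the P6H9 animals. Cwc22, a splicing factor gene with many copies on chromosome 2, was at 564 and 474 CPM in P6H7, 29.6 and 30.9 CPM in P6H9, 30.3 and 32.9 CPM in P4H4 and 546 and 153 CPM in P6H8. It split both groups (0.53 ± 1.14 SE, adjusted p = 0.917), and how reads were divided among the copies was not tested. Siglece, an inhibitory receptor gene, was at 0.03 to 0.36 CPM and did not enter the test.

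No gene of the inflammatory and damage-related lists passed the test. Chemokines and their receptors had a median of -0.21 over 19 members, 9 higher and 10 lower. Of 30 genes of the TNF and NF-kB response, 21 were lower, with a median of -0.07. Gadd45b had the smallest p (-0.75 ± 0.25 SE, adjusted p = 0.475, quasi-likelihood test), while the regulators Cd83, Tnfaip3 and Nfkbia stood at -0.02 ± 0.19, -0.02 ± 0.20 and 0.10 ± 0.16 (SE). Of 29 type I interferon genes, 17 were higher, with a median of 0.04, led by Trim30a at 0.34 ± 0.12 (SE, adjusted p = 0.475), beside Irf9 at 0.12 ± 0.13 (SE). The median of this list was -0.28 in the P6H7 and 0.27 in the P6H9 animals against the controls. The P6H9 animals differed from each other, with list scores of 3.38 in P6H9-15F and 2.47 in P6H9-14M. The score was 2.68 and 2.42 in the P6H7 animals and 2.59 to 2.99 in the controls. Complement genes had a median of 0.01 over 21 members, with C1qa at 0.06 ± 0.16 (SE), C1qc at 0.01 ± 0.16 and Clu, a regulator of the cascade that astrocytes also express, at -0.83 ± 0.22 (SE, adjusted p = 0.463). The genes of axon-tract and disease-associated microglia had a median of -0.12 over 25 members. Ank, a phosphate transporter gene, was at 43.3, 53.5, 62.1 and 64.4 CPM in Hypoxia and at 78.0 to 79.4 CPM in control animals, which spanned a narrow range above all Hypoxia animals (-0.50 ± 0.12 SE, adjusted p = 0.463; DESeq2 adjusted p = 0.0397). Apoe stood at -0.31 ± 0.18 (SE), Ctsd at -0.16 ± 0.15 and Ctsb at -0.03 ± 0.19. In the TGF-beta pathway, which maintains microglial identity, 16 of 22 genes were higher with a median of 0.08. Lrrc32, which anchors latent TGF-beta at the cell surface, was at 9.46, 9.61, 7.43 and 7.19 CPM in Hypoxia and 5.66, 4.10, 5.61 and 4.88 CPM in control animals, with no overlap (0.73 ± 0.17 SE, adjusted p = 0.463; DESeq2 adjusted p = 0.014), while Tgfbr1, Skil and Tgfbr2 stood at 0.17 ± 0.16, 0.11 ± 0.12 and 0.08 ± 0.09 (SE). Genes of S phase were higher in 25 of 27 members with a median of 0.22 and 5 at an unadjusted p under 0.05 (2.97% of all genes), led by the replication helicase gene Mcm6 (0.42 ± 0.16 SE, adjusted p = 0.487), with Pcna at 0.25 ± 0.14, Slbp at 0.19 ± 0.08 and Rrm1 at 0.10 ± 0.11. The S phase score was 3.33 and 3.39 in the P4H4 controls, within the Hypoxia range of 3.25 to 3.64. In the P6H8 controls it was 3.02 and 3.01, below that range. With the scaling or the animals changed, the S phase median lay between 0.07 and 0.44. Cholesterol genes were lower in 22 of 24 members with a median of -0.08, among them Hmgcs1 (-0.27 ± 0.28 SE), whereas the efflux genes Abca1 and Abcg1 stood at -0.01 ± 0.15 and -0.03 ± 0.12. Against the same controls, the median of the cholesterol list was -0.32 in the P6H7 and 0.09 in the P6H9 animals.

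**Figure D5:**
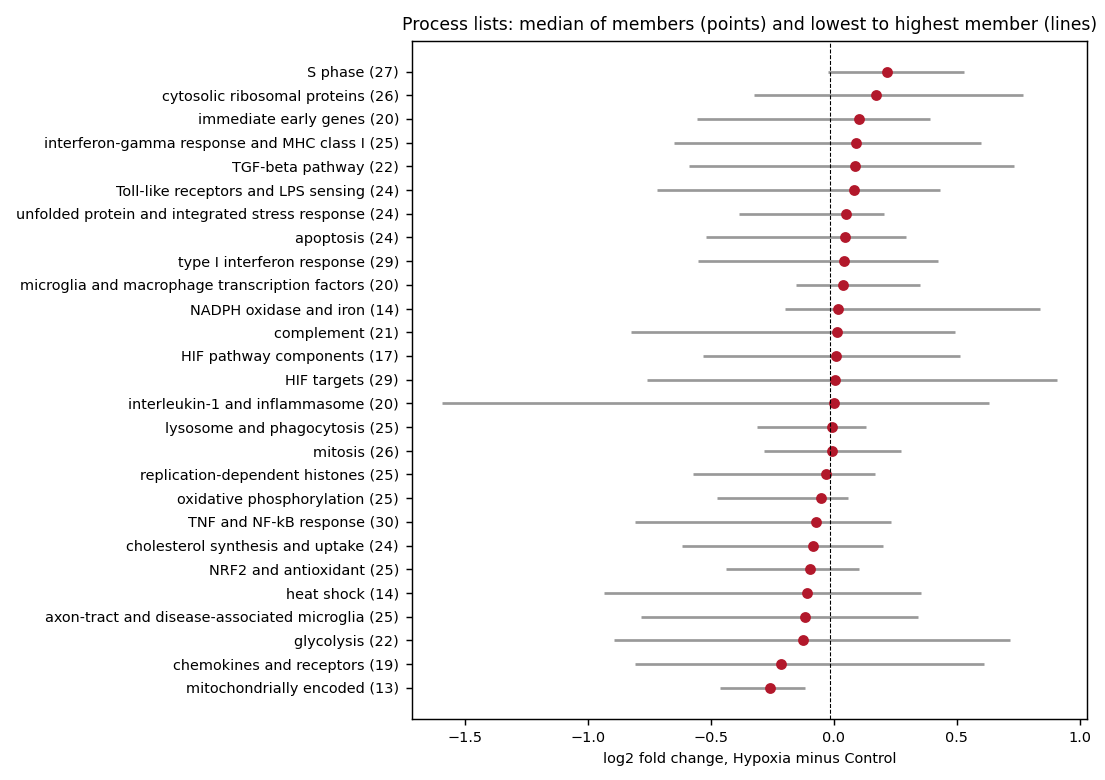
Points give the median log2 fold change (Hypoxia minus Control) of each process list, lines the range from its lowest to its highest member, and the dashed line the median of all 20953 genes (-0.01); the number of genes measured is in parentheses. Medians lie between -0.26 for transcripts encoded by mitochondria and 0.22 for S phase, and every line but that of the mitochondrial transcripts crosses 0.

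Hypoxia alone was also set beside HIE, with 12 animals in 1 fit. No gene passed between Hypoxia and HIE (edgeR's quasi-likelihood test, 1179 at an unadjusted p under 0.05), nor between Hypoxia and control animals in that fit. Both groups were compared with the same controls. On the log2 scale, Rgs5 differed from them by 0.79 in Hypoxia and by 0.81 in HIE animals, Vegfa by -0.36 in each, and Cd74 by -0.82 in Hypoxia and 0.02 in HIE animals. No gene passed the interaction of treatment with sex (smallest adjusted p = 0.98, 628 genes at an unadjusted p under 0.05), and expression matched the sex label in 8 of 8 libraries.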

How the data were processed

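CD11b+ cells were enriched from CF-1 mouse brains on magnetic beads, and libraries were made from total RNA with a stranded kit that removes ribosomal RNA. Per the labels and the submitters' processing notes, reads were checked with FastQC, aligned to GRCm39 with STAR and counted with RSEM, so the deposited values are expected counts, not normalized. RSEM divides reads that fit several genes by estimation. Versions, annotation release and strand setting are not given in the sources used here.

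Expected counts were rounded to whole numbers, since 85.7% to 86.3% of the values per library were whole. Of 56691 genes listed, 20953 passed edgeR's filterByExpr. Hypoxia and control animals were compared with edgeR 4.0.16 (R 4.3.3; TMM scaling, quasi-likelihood F test) with Benjamini-Hochberg adjustment over all genes tested and a threshold of 0.05. DESeq2 1.42.0 and limma 3.58.1 were alternatives. The procedure was tested on simulated data with independent animals, which cannot show how it behaves where animals share a prefix. CPM values are TMM-scaled unless said to be scaled to totals. Totals of 29751540 to 39349011 counts per library set the precision, and intervals and floors cover counting error only. Symbols and positions come from GENCODE M39 (20831 genes matched), and copies were searched with blastn 2.17.0. A list score is the mean log2 CPM of its genes with a prior count of 2.

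The genes, the lists (18 of cell types, 27 of processes) and the comparison were chosen with earlier results of these data known. Genes were named by rule. The rule took up to 12 called genes per direction, filled to 6 by unadjusted p. In each list described it took up to 4 called members, or otherwise the 3 most abundant and the one with the smallest p. It also took Vps37b, Abcb9, Siglece, Cwc22, Hif1a and Vegfa, and the largest difference in each direction at a mean CPM of at least 5. Markers used only to check the cell label, and genes named for the prefixes, are outside this rule. Some genes that the rule takes are not reported here. Groups come from the treatment and time labels. Alternatives changed the scaling, filter, test, covariates and animals. Nothing in the labels says that animals of a prefix are independent, so p-values measure the spread between these animals.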

Additional observations from a re-analysis of the deposited data

Results flagged for a closer look

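In sets of 4 animals, 13 of the 278 examined had 1 animal apart by Dixon's ratio (the gap to the nearest animal divided by the range), where chance gives about 1 in 20. The Hypoxia animal P6H7-16M was lowest in Pfkm (ratio 0.895), mt-Co1 (0.848), mt-Nd1 (0.849), Clu (0.857) and the astrocyte score (1.000), and highest in Tnfaip3 (0.930). The Hypoxia animal P6H9-14M was lowest in Ep300 (0.933), P6H9-15F in the heat shock score (0.852) and P6H7-8F in the score of interleukin-1 and inflammasome genes (0.925). The control P6H8-7M was lowest in Rps3a3 (0.878), Epas1 (0.951) and the score of HIF targets (0.833), and highest in Nr4a1 (0.912). Outside the comparisons, the HIE animal N8-3 of P7 held 34.59 CPM of Ahcyl, against at most 0.4 CPM in the P14 controls.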

How the results depend on the processing

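The 2 calls of the quasi-likelihood test became 164 with DESeq2, 62 with edgeR's exact test, 64 with its likelihood ratio test and 5 with bias-adjusted deviances, 1 with a mean CPM of at least 1, 1 with sex as a covariate and 1 with near-identical copies summed (added after seeing the data). The last is Gm7240, which was summed with no other gene. There were 0 calls in the fit of 12 animals, with counts summed per name prefix, and with only the P6H8 controls, where 2147, 877 and 1201 genes had an unadjusted p under 0.05. Males alone gave 1 call and females alone 4, without the P6H7 animals there were 16 and without the P6H9 animals 774. Leaving out 1 animal gave 1 to 7 calls, with 7 without the Hypoxia animal P6H9-14M or the control P6H8-7M and 1 without the Hypoxia animal P6H9-15F or the control P4H4-8M or P6H8-8F. Ahcyl passed in each of these fits (adjusted p 0.00236 to 0.0234, quasi-likelihood test), and Gm7240 did not in the last 3. No paired analysis was possible because the labels give no replicate numbers shared between groups. With the name prefix as a random block, limma voom called 2 genes, with a correlation of 0.228 within prefixes.

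Of 1973 recomputed values of named genes, 1904 kept direction and side of the threshold, counting 88 changes of sign with both values within 1 SE of 0, 49 came past the threshold, 10 no longer passed and 10 changed direction. With only the P6H8 controls, log2 fold changes turned to 0.292 for Slc1a2, 0.181 for Mbp, 0.0751 for Cnp, 0.111 for Mobp, -0.334 for Meg3, -0.174 for Hk2, 0.0707 for mt-Cytb and 0.0221 for mt-Nd1. With only the P4H4 controls, Ctsb turned to 0.265. With all controls, Gm2999 summed with Eif4a2 turned to 0.0174. The causes were not tested, apart from the summing itself.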
